A study of Homo sapiens with 28 samples.

Results

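Broad H3K27ac domains are long stretches of chromatin that carry acetylation of lysine 27 on histone H3. The peaks of all 8 mouse H3K27ac libraries were merged into 32836 union regions (mouse build mm10), and a library was taken to hold a region when its own merged peaks covered at least 10% of it. The domains described here are the 531 union regions of 4000 bp or more that were held by all 5 DKOITD and all 3 WT libraries. They spanned 2.99 Mb of the 44.4 Mb in all union regions, with a median width of 4973 bp. Width and presence in every library chose them, so neither is a finding, and a union region is at least as wide as the widest peak any library has there. The narrowest members lay at Cisd2 (4000 bp), Kcna3 (4002 bp) and Preb (4005 bp). The widest held regions that fell short were 3991 bp at Get3 and Trir, 3987 bp at Kdm6b, and 3986 bp on chromosome 3. Members closest to the limit on cover were at Ptpn22 and Rsbn1 (10.01%), Sh3tc1 (10.02%) and Flna (10.04%), each in DKOITD53e. Wide regions just under it were at Iqsec1 (9.85% in DKOITD83), Tbc1d9b (9.69% in DKOITD53e) and a stretch of Runx1 (9.68% in DKOITD53e).

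H3K27ac is laid down by the acetyltransferases CBP and p300 at active promoters and enhancers. In most cell types the bulk of it sits in short peaks, and a smaller set of long, nearly continuous stretches lies at genes of cell identity, signalling and high transcription. On the same lysine, H3K27me3 is written by EZH2, the catalytic subunit of Polycomb repressive complex 2, and a single lysine cannot carry both marks at once.

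The 5 DKOITD mice (DKOITD48, DKOITD52, DKOITD53e, DKOITD83 and DKOITD185) carried Ezh2(fl/fl) and Runx1(fl/fl), with Cre at Rag1 (Rag1(Cre/+)) and an internal tandem duplication in 1 copy of Flt3 (Flt3(ITD/+)). The 3 WT mice carried the same floxed pair, Ezh2(fl/fl) and Runx1(fl/fl), with Rag1(+/+) and Flt3(+/+), and so had no Cre. All were C57BL/6, and the libraries came from bone marrow. The DKOITD marrow was used whole, whereas the WT marrow had been enriched on CD117 beads for cells that express Kit, so genotype and preparation cannot be told apart in any difference given here. Rag1 is active in lymphoid progenitors and their descendants, and whole marrow also holds cells that never expressed it. In marrow, fewer cells with a mark and a shorter marked stretch in each cell cannot be told apart either.

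The H3K27ac libraries held 9435546 to 11458360 fragments in DKOITD mice and 6515614 to 7072997 in WT mice, so every WT library was the shallower. Peaks were called per library, and their total length was 7.03 to 23.8 Mb in DKOITD mice and 16.8 to 29.7 Mb in WT mice. Over 23 neutrophil and primary granule genes, H3K27ac covered 3.40 to 38.4 kb in DKOITD mice (6 to 16 genes with a peak) and 45.2 to 89.4 kb in WT mice (16 to 23 genes), and S100a8, Camp and Cd177 were at 0 in all DKOITD mice. Over 20 dendritic cell and MHC class II genes, it covered 28.4 to 94.3 kb in DKOITD mice (14 to 17 genes) and 23.7 to 40.8 kb in WT mice (6 to 10 genes), with Batf3, H2-Aa and H2-DMb1 at 0 in all WT mice. Over 18 erythroid genes the sums were 1.92 to 10.202 kb in DKOITD mice (4 to 6 genes) and 12.5 to 30.4 kb in WT mice (8 to 11 genes), with Car2 at 0 in all DKOITD mice and Gata1 at 0 in all 8. Over 12 mast cell and basophil genes they were 0 to 3.17 kb in DKOITD mice (0 to 2 genes) and 5.31 to 12.8 kb in WT mice (2 to 5 genes), with Cpa3 and Fcer1a at 0 in all 8. For the monocyte list the sums overlapped, at 3.34 to 49.3 kb in DKOITD mice and 4.91 to 20.2 kb in WT mice. They also overlapped for the B, T, NK, megakaryocyte and plasma cell lists. Over 20 housekeeping genes they were 21.8 to 49.7 kb in DKOITD mice and 38.3 to 53.2 kb in WT mice, so low sums are not particular to lineage genes. The part of cell types in the results on the domains was not tested.

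Peaks covered less of the average domain in 3 of the 5 DKOITD mice than in any WT mouse. The other DKOITD mice lay within the WT range. The mean share of a domain under peaks was 48.7% in DKOITD48, 69.1% in DKOITD52, 32.2% in DKOITD53e, 34.8% in DKOITD83 and 74.9% in DKOITD185, against 82.6% in WT1, 60.2% in WT2 and 70.1% in WT3. DKOITD48, DKOITD53e and DKOITD83 lay below all WT mice, and DKOITD52 and DKOITD185 lay between WT2 and WT1, so the genotypes overlapped. The group means were 51.9% ± 19.5 in DKOITD mice (SD, n = 5) and 71.0% ± 11.2 in WT mice (SD, n = 3). No test was run on this score, because the members were chosen from these peaks. The difference of -19.0 percentage points was 1.01 with the 3 low DKOITD mice left out. Their libraries were also the least enriched. Peaks took in 6.09% of all fragments for DKOITD53e, 6.40% for DKOITD83 and 11.3% for DKOITD48. The figure was 19.4% for DKOITD52, 19.9% for DKOITD185 and 14.2 to 27.2% for WT mice. Whether weaker libraries, rather than shorter acetylated stretches, gave the low cover was not tested.

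**Figure D1:**
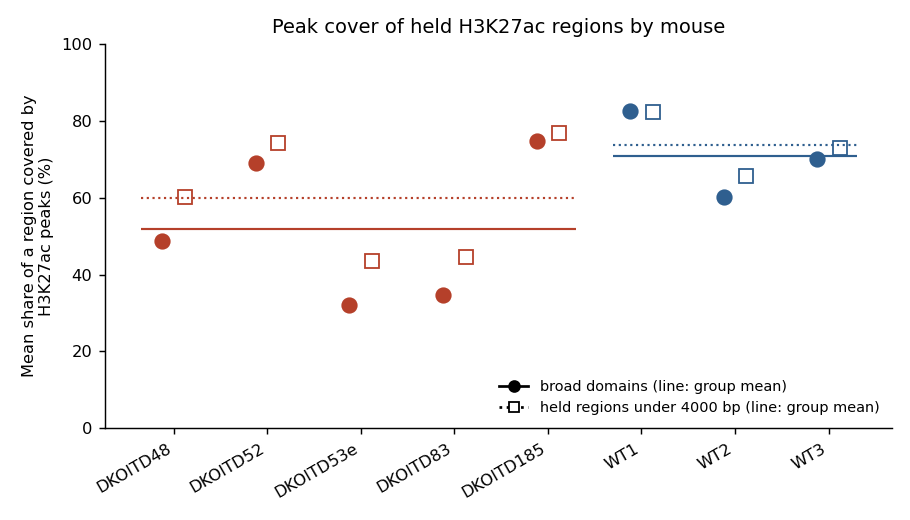
Mean share of a region covered by H3K27ac peaks (y axis, percent) in each mouse (x axis, DKOITD in red and WT in blue), for the 531 broad domains (filled circles) and for the 5990 held regions under 4000 bp (open squares), with group means as lines. DKOITD53e and DKOITD83 are the lowest at 32.2% and 34.8%, and DKOITD185 at 74.9% stands above WT2 and WT3.

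The 5990 shorter regions held by the same 8 libraries were better covered in the low mice. Their mean cover was 59.9% ± 15.8 in DKOITD mice (SD, n = 5) and 73.6% ± 8.42 in WT mice (SD, n = 3). Divided by the cover of the short regions in the same mouse, the cover of the broad domains was 0.811 in DKOITD48, 0.930 in DKOITD52, 0.742 in DKOITD53e, 0.780 in DKOITD83 and 0.974 in DKOITD185, against 1.00 in WT1, 0.918 in WT2 and 0.962 in WT3. The same 3 DKOITD mice lay below every WT mouse in this ratio, and DKOITD52 and DKOITD185 lay among them. Broad and short regions were split at a width of 4000 bp, and that width was set by the peaks of these same libraries. A library with short peaks can therefore cover less of wide regions than of short ones by this choice alone. The ratio thus cannot show a shortfall particular to broad domains, and no test was run on it. Among all 8 mice, DKOITD53e had the least cover in 291 domains and DKOITD83 in 190. The most cover was found in DKOITD185 for 159 domains and in WT1 for 225.

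Peaks within the domains were shorter in the low mice, while the number of pieces was alike. A domain held 1.24 ± 0.0441 separate peaks in DKOITD mice (SD, n = 5) and 1.24 ± 0.0393 in WT mice (SD, n = 3). The median length of the longest peak in a domain was 2397 ± 1079 bp in DKOITD mice and 3505 ± 638 bp in WT mice. One unbroken peak of 4000 bp or more lay in 54, 171, 17, 18 and 230 domains of DKOITD48, DKOITD52, DKOITD53e, DKOITD83 and DKOITD185, against 305, 112 and 191 domains of WT1, WT2 and WT3. On this count DKOITD52 and DKOITD185 again lay inside the WT range and the other DKOITD mice below it.

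A core shared by every mouse was present in nearly all domains. Of the domains' bases, 26.5% were covered in all 8 mice, and 528 of the 531 domains had such a core, with a median length of 1172 bp. Every member had to be held by all 8 libraries, in regions built from these same peaks. A shared core is therefore partly built in by the choice of members, and its share was not taken over other regions. Another 0.166% of bases were covered in all DKOITD and no WT mouse (in 19 domains), and 2.82% in all WT and no DKOITD mouse (in 178 domains). The first share needs cover in every DKOITD library, of which DKOITD48, DKOITD53e and DKOITD83 had only 7.03 to 13.1 Mb of peaks. The second needs it in the WT libraries, which were fewer and had 16.8 to 29.7 Mb. The first condition is thus harder to meet, so the shares cannot be compared as gain and loss. Neither was taken over other regions. The greatest summed lengths with cover in every DKOITD mouse and no WT mouse lay at Klf4 (2078 bp), at the non-coding genes Gm46562 and A930006K02Rik on chromosome 16 (945 bp), and at Rara (488 bp). Those with cover in every WT mouse and no DKOITD mouse lay at Sh2b1 (2717 bp), Agpat2 (2457 bp), Mapkapk2 (2222 bp), Orai1 (1888 bp) and Usp46 (1835 bp). These 8 domains were picked by that length.

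Gene ends were the best covered part of a domain in every mouse. The gene table used gives no strand, so the start and the end of a gene were not separated. Within 500 bp of the end of a protein-coding gene, peaks covered 62.0 to 91.1% of domain bases in DKOITD mice and 83.2 to 93.5% in WT mice, and 55.7% of these bases belonged to the shared core. At 2000 to 4000 bp from a gene end they covered 13.9 to 60.0% in DKOITD mice and 42.9 to 76.7% in WT mice, and 9.38% of bases belonged to the core. DKOITD48, DKOITD53e and DKOITD83 lay below all WT mice in each of the 5 distance classes, and DKOITD52 and DKOITD185 lay above WT2 in each. Farther than 4000 bp the core share was 23.7%.

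**Figure D2:**
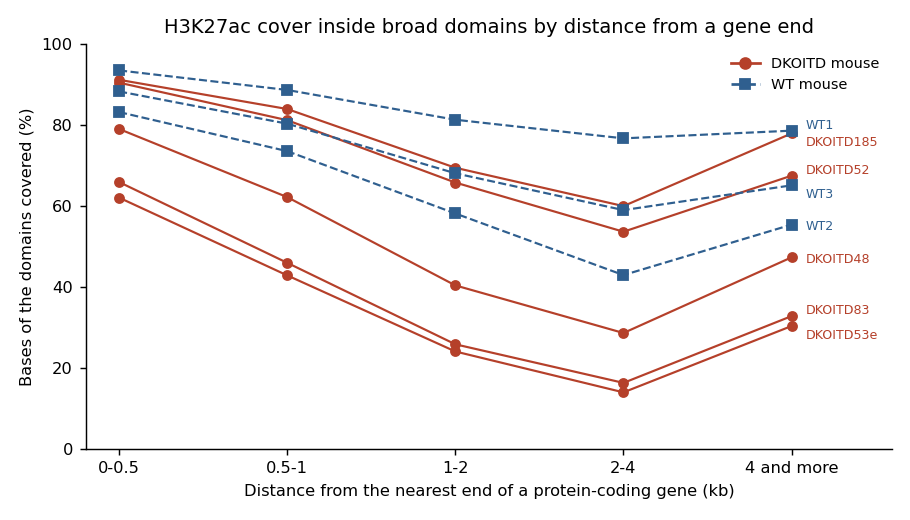
Share of domain bases covered by H3K27ac peaks (y axis, percent) in 5 classes of distance from the nearest end of a protein-coding gene (x axis, kb), 1 line per mouse (DKOITD red circles, WT blue squares). DKOITD53e had 62.0% cover within 0.5 kb and 13.9% at 2 to 4 kb, and WT1 had 93.5% and 76.7%.

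Covered length was then tested region by region. The values were log2(covered bp + 200), fitted with limma over all 16392 union regions with cover in at least 3 of the 8 libraries, and a region was called at a Benjamini-Hochberg adjusted p under 0.05. Every one of the 531 domains passed this filter, since each had to be held in all 8 libraries. Cover was called lower in DKOITD mice at 51 domains, which is 9.60% of them, beside 11.2% of all regions tested. The members' share is therefore near the background of the whole table, while among the short held regions 1.54% were called lower and 0.167% higher. The 51 domains had log2 changes of -0.77 to -2.16, and in 50 of them all DKOITD mice lay below all WT mice. At an unadjusted p under 0.05, 144 domains were lower and 7 higher.

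At 1 domain, that of Klf4, cover was called higher in DKOITD mice, which is 0.188% of the members beside 1.44% of all regions tested. Counting separation in place of calls, all DKOITD mice lay below all WT mice in 111 domains (20.9%, beside 18.9% of all regions tested and 11.5% of short held regions). All DKOITD mice lay above all WT mice in 4 domains (0.753%, beside 2.01% and 0.935%). Among these were the domains of Klf4, of Rab43, and of Shisa5, Trex1 and Atrip. The median log2 change was -0.50 over the broad domains, -0.29 over the short held regions and -0.47 over all regions tested. Contrasts of broad with short held regions in calls, separation and change carry the limit given above for the ratio of cover.

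These counts rest on the scale between libraries and on single mice. With each library centred on its own median over the regions held by all 8, a shift of -0.32 on the log2 scale in the difference, 72 domains were lower (13.6%, beside 12.6% of all regions tested) and 20 higher (3.77%, beside 5.03%). With the same number of peaks taken from every library, 47 domains were lower (8.85%, beside 6.98%) and 13 higher (2.45%, beside 3.63%). Without DKOITD48, DKOITD53e and DKOITD83, 6 domains were lower (1.13%, beside 4.41%) and 10 higher (1.88%, beside 0.597%), and the median log2 change of the domains was 0.01. Without 1 WT mouse the lower calls numbered 2 (without WT1), 5 (without WT2) and 3 (without WT3). Klf4 and Agpat2 were called in the same direction in each of these reanalyses, and Usp46 in each but that with equal peak numbers.

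**Figure D3:**
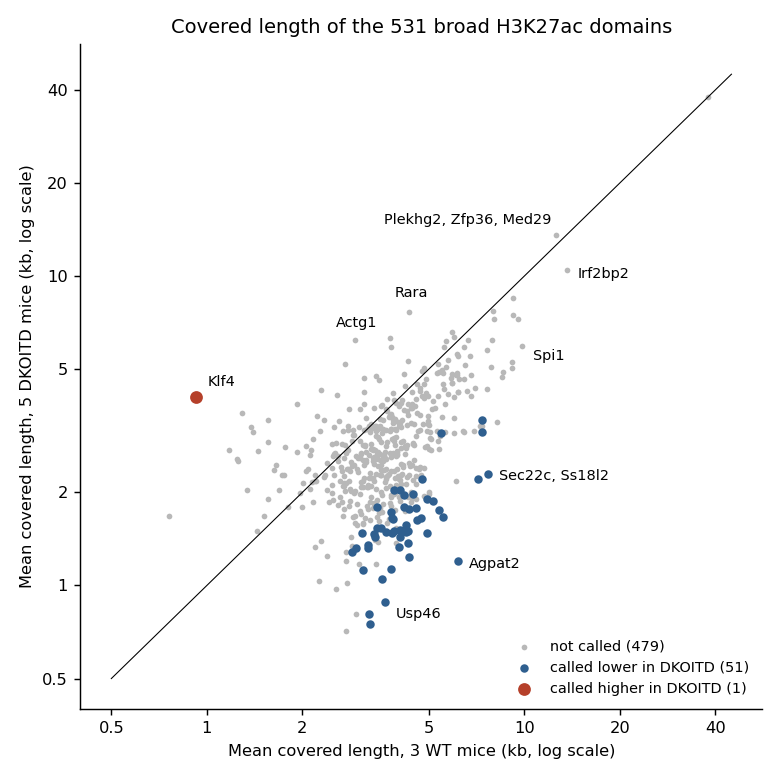
Mean covered length of each of the 531 domains in DKOITD mice (y axis, kb, log scale) against WT mice (x axis, kb, log scale), with the line of equal length. The 51 domains called lower in DKOITD (blue) lie below the line, and Klf4 (red) lies above it at 4.08 kb in DKOITD mice and 0.927 kb in WT mice.

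Klf4 encodes a Krüppel-like transcription factor that promotes monocyte differentiation and is also one of the factors used to reprogram cells to pluripotency. Its domain (chromosome 4, 55529688 to 55534494) was covered over 4.19, 4.76, 3.86, 3.17 and 4.404 kb in DKOITD48, DKOITD52, DKOITD53e, DKOITD83 and DKOITD185, against 0.861, 0.890 and 1.03 kb in WT1, WT2 and WT3. Every DKOITD mouse, the 3 with little cover elsewhere included, had over 3 kb of the domain acetylated, and no WT mouse had much more than 1 kb. DKOITD peaks drew the width of this domain, so high DKOITD cover of it is partly fixed by how regions were made. Cover averaged 4.08 ± 0.606 kb in DKOITD mice (SD, n = 5) and 0.927 ± 0.0904 kb in WT mice (SD, n = 3), with a log2 change of 1.91 (SE 0.17, limma adjusted p = 0.00054). The call held in all 17 alternative fits, with adjusted p-values of 1.71e-05 to 0.0253. H3K27me3 peaks lay in the same domain over 0, 0.379, 0, 0 and 1.05 kb in the 5 DKOITD mice in the same order, against 3.63, 1.96 and 4.00 kb in WT1, WT2 and WT3. Of the DKOITD mice, DKOITD48, DKOITD53e and DKOITD83 thus had peaks of H3K27ac alone. Their H3K27me3 libraries had only 2665, 1891 and 3303 peaks in all, against 15529 in DKOITD52, 25557 in DKOITD185 and 7956 to 17225 in WT mice. Absence of a peak in these 3 mice therefore does not show that the mark was absent. Each WT mouse had a short acetylated stretch that a longer trimethylated one enclosed (WT1 and WT3) or overlapped in part (WT2).

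Agpat2 and Usp46 had the largest decreases, and among lower calls these held in the most alternative fits. Agpat2 encodes an acyltransferase that makes phosphatidic acid on the way to triglycerides. Its domain (chromosome 2, 26599936 to 26609121) was covered over 1.04, 1.67, 1.13, 1.06 and 1.11 kb in DKOITD48, DKOITD52, DKOITD53e, DKOITD83 and DKOITD185, against 8.48, 5.19 and 4.85 kb in WT1, WT2 and WT3. Each DKOITD mouse had a single short peak, the longest in DKOITD52. In WT1 1 unbroken peak ran over that place and to both sides of it, and WT2 and WT3 had further peaks on both sides. The log2 change was -2.16 (SE 0.23, limma adjusted p = 0.000645). Usp46 encodes a deubiquitinating enzyme, and its domain (chromosome 5, 74065020 to 74069163) was covered over 0.847, 0.949, 0.826, 0.767 and 1.03 kb in the 5 DKOITD mice, against 3.86, 4.03 and 3.0 kb in WT1, WT2 and WT3. Its log2 change was -1.82 (SE 0.17, limma adjusted p = 0.000541). Here too the genotypes stood apart, and DKOITD52 and DKOITD185 did not differ from the other DKOITD mice in the way they did over the average domain. Each DKOITD mouse had 1 short peak in either domain, so WT peaks drew the width of both. High WT cover of these domains is partly fixed by that. Both calls held in 15 of 17 alternative fits and were lost when only peaks with a −log10 q of at least 5 were used (adjusted p = 0.278 for Agpat2 and 0.274 for Usp46). Agpat2 was also lost on the percent scale (adjusted p = 0.0591), and Usp46 with equal peak numbers (adjusted p = 0.0732).

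**Figure D4:**
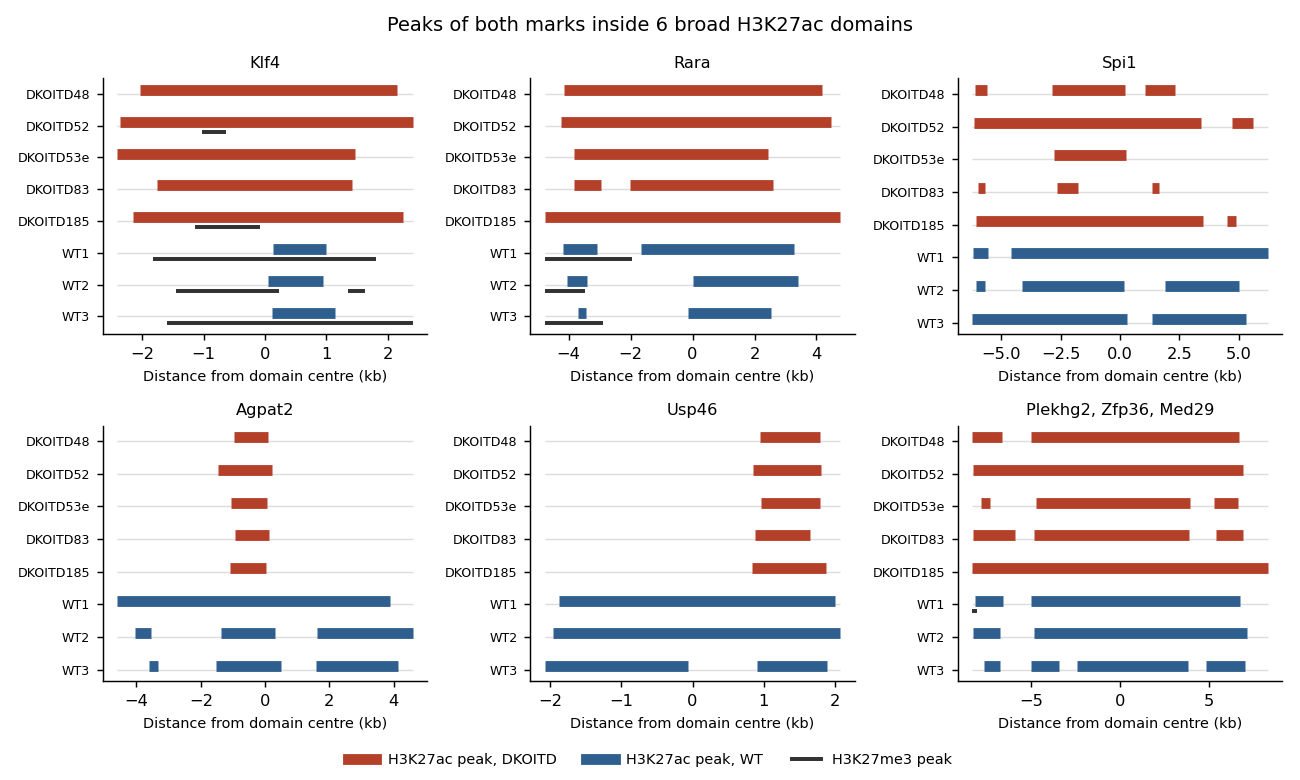
Extent of H3K27ac peaks (thick bars, DKOITD red above, WT blue below) and of H3K27me3 peaks (thin dark bars) in each mouse, inside 6 broad domains, against the distance from the domain's centre (x axis, kb). At Klf4 acetylation spans 3.17 to 4.76 kb in DKOITD mice and 0.861 to 1.03 kb in WT mice, and at Agpat2 and Usp46 only the WT mice have acetylation outside a short shared peak.

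The other 8 of the 10 largest called decreases were in genes of several kinds. Mean cover was 2.29 ± 1.30 kb in DKOITD mice and 7.68 ± 1.24 kb in WT mice at Sec22c and Ss18l2, of which Sec22c belongs to a family of vesicle-trafficking proteins. At Mapkapk2, a kinase downstream of p38 that stabilises inflammatory mRNAs, it was 2.21 ± 1.12 kb in DKOITD mice and 7.14 ± 1.64 kb in WT mice. At Tfdp1, the dimerisation partner of E2F factors, it was 1.24 ± 0.632 kb in DKOITD mice and 4.33 ± 1.74 kb in WT mice. Log2 changes at the 8 ran from -1.69 at Tfdp1 to -1.81 at Sec22c and Ss18l2, and limma adjusted p-values from 0.00474 at Gm16867 to 0.0331 at Adipor1. The remaining members of this group were Itm2b (a membrane protein), Msra (which repairs oxidised methionine) and Pik3ap1 (an adaptor to PI3-kinase in B cells). All DKOITD mice lay below all WT mice in each of the 10.

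More decreases are named after their values were seen. Without DKOITD48, DKOITD53e and DKOITD83 the lower calls were those of Agpat2, Usp46, Pik3ap1, Sh2b1, Znrf1 and Elmo1. Sh2b1, an adaptor that binds the kinase JAK2, was covered over 2.50, 2.09, 1.57, 0.785 and 1.80 kb in the 5 DKOITD mice, against 5.62, 5.37 and 5.21 kb in WT1, WT2 and WT3. Elmo1, which activates Rac in cell migration and engulfment, was covered over 1.46, 1.69, 1.44, 1.24 and 1.69 kb in the 5 DKOITD mice, against 5.21, 3.41 and 4.28 kb in the WT mice. In both, every DKOITD mouse lay far below every WT mouse, but they were picked for their calls, so this is no further support. The domains were 5617 bp wide at Sh2b1 and 5252 bp at Elmo1, near the cover in WT1. No DKOITD mouse covered more than 2.50 kb at Sh2b1 or 1.69 kb at Elmo1. WT peaks thus drew the width of both, and high WT cover of them is partly fixed by that. Limma adjusted p-values over all mice were 0.00814 for Sh2b1 (log2 change -1.60, SE 0.31) and 0.00123 for Elmo1 (log2 change -1.39, SE 0.18). Stim1, the calcium sensor of the endoplasmic reticulum, was also lower (log2 change -1.24, adjusted p = 0.0485). At Orai1, the calcium channel that STIM1 opens, the log2 change was -1.42 with an adjusted p of 0.0684.

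Pik3ap1 had 2 member domains, of which 1 was called lower and the other was not called with all data. The one called lower (chromosome 19, 41381740 to 41385990) was covered over 0.938, 1.74, 0.734, 0.462 and 1.77 kb in the 5 DKOITD mice, against 4.10, 3.76 and 3.58 kb in WT1, WT2 and WT3 (log2 change -1.72, limma adjusted p = 0.0148). The other (chromosome 19, 41327997 to 41335683) was covered over 4.82, 3.54, 0.980, 2.50 and 7.44 kb in the DKOITD mice, against 2.90, 1.42 and 1.43 kb in the WT mice. The genotypes overlapped in the second, which had a log2 change of 0.75 (SE 0.56) and an adjusted p of 0.385. With equal peak numbers it was called higher in DKOITD mice (log2 change 4.07, limma adjusted p = 0.000906). That fit keeps the 8825 peaks of each library with the highest −log10 q. A peak ranked lower counts as no cover there, so this change is not one of length alone. The difference between the 2 domains was not tested. In all, 13 genes had more than 1 member domain, among them Ago2, Foxp1, Cic and Trak1.

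None of the 10 longest domains was called by limma in either direction, with adjusted p-values of 0.258 to 0.998. The longest of all (chromosome 9, 2999403 to 3038263, 38.9 kb) lies at the start of the assembled chromosome and touches no protein-coding gene, with the microRNA gene Mir101c beside it. It was covered over 37.0 to 38.2 kb by H3K27ac peaks and over 38.2 kb by H3K27me3 peaks in all 8 mice, so the peaks overlapped there almost base for base. Whether both marks are truly present there was not tested. No exclusion list of genome regions was applied, and this domain is in the counts and lengths given for all 531. Next came the domains of Plekhg2, Zfp36 and Med29 (16.6 kb), Irf2bp2 (16.5 kb), Mef2d (14.9 kb) and Spi1 (12.4 kb). These were followed by the non-coding genes Gm46562 and A930006K02Rik (11.9 kb, 18.1 kb from the interferon receptor gene Ifnar1), Vmp1 (11.8 kb), Etv6 (11.4 kb), Tspoap1 (11.3 kb) and Actb (10.9 kb). These p-values leave large differences unresolved. Cover of Spi1 averaged 5.95 kb in DKOITD mice and 9.87 kb in WT mice, and that of Etv6 4.33 kb in DKOITD mice and 7.63 kb in WT mice (log2 change -0.96, SE 0.52).

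Zfp36 encodes tristetraprolin, which binds AU-rich elements and speeds the decay of cytokine mRNAs. Its domain was covered over 13.4, 15.2, 10.5, 12.6 and 16.6 kb in DKOITD48, DKOITD52, DKOITD53e, DKOITD83 and DKOITD185, against 13.3, 13.5 and 10.9 kb in WT1, WT2 and WT3. The ranges overlapped, and even DKOITD53e kept over 10 kb (log2 change 0.10, SE 0.28, limma adjusted p = 0.825). Spi1 encodes PU.1, the ETS factor of myeloid and B cells, and its domain was covered over 4.82, 10.5, 3.05, 1.46 and 9.96 kb in the 5 DKOITD mice, against 11.4, 7.73 and 10.5 kb in the WT mice. DKOITD52 and DKOITD185 lay within the WT range and the other DKOITD mice below it (log2 change -1.01, SE 0.60, adjusted p = 0.291).

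Runx1 is one of the floxed genes, and a domain inside it was a member (chromosome 16, 92691582 to 92699790). It was covered over 4.78, 5.83, 1.44, 2.14 and 7.22 kb in the 5 DKOITD mice, against 1.90, 1.92 and 3.06 kb in WT1, WT2 and WT3. DKOITD53e lay below all WT mice and DKOITD83 between them, and the other DKOITD mice lay above (log2 change 0.66, SE 0.50, limma adjusted p = 0.394). Without DKOITD48, DKOITD53e and DKOITD83 it was called higher (log2 change 1.46, adjusted p = 0.0406). Deletion of a floxed exon is not visible in these peaks. Ezh2, Flt3 and Rag1 had no member domain.

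Of the 531 domains, 487 lay within 1 kb of a protein-coding gene and 406 (76.5%) spanned the end of at least 1 such gene. Among short held regions 86.3% spanned a gene end, and among all union regions 31.3%. The domains touched 620 of 21896 protein-coding genes (2.83%). Lists of genes were then compared with that share as a description, with no test. Long genes are touched more often than short ones, and the lists were not matched for length.

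Immediate-early and mRNA-decay genes, which switch on within minutes of a signal and limit the life of the transcripts, had the largest share of any list. Of 20 such genes 11 (55.0%) were touched, namely Junb, Jund, Ier2, Klf2, Klf6, Btg1, Dusp1, Zfp36, Zfp36l1, Zfp36l2 and Mcl1. None of their 11 domains was called by limma, and their median log2 change was 0.02, beside -0.50 over all broad domains and -0.47 over all regions tested. Junb, a subunit of the AP-1 factor, shared a domain with Prdx2 that was covered over 6.91, 6.60, 5.42, 5.36 and 7.42 kb in the 5 DKOITD mice, against 6.67, 4.71 and 6.61 kb in WT1, WT2 and WT3. Klf6, a Krüppel-like factor, was covered over 4.65, 5.24, 3.80, 3.91 and 5.62 kb in the DKOITD mice, against 4.96, 4.71 and 5.07 kb in the WT mice. In both the ranges overlapped and the DKOITD mice with low cover elsewhere kept most of the domain. Mcl1, which protects blood cells from apoptosis, was covered over 6.02, 6.80, 3.21, 1.98 and 5.35 kb in the DKOITD mice, against 2.89, 2.64 and 3.85 kb in the WT mice, with overlap again (log2 change 0.44, adjusted p = 0.457).

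Transcription factors of myeloid cells followed with 10 of 20 genes (50%), namely Spi1, Cebpd, Klf4, Klf2, Klf6, Rara, Runx1, Junb, Bcl6 and Zeb2. Among their domains Klf4 was called higher and none lower, and the median log2 change was 0.06. The RUNX, ETS and Ikaros family list had 8 of 20 genes (40%) in 9 domains, with none called and a median of -0.39. Ikzf1, the lymphoid zinc finger factor Ikaros, was covered over 5.33, 7.46, 1.30, 1.47 and 7.74 kb in the 5 DKOITD mice, against 6.68, 6.42 and 5.55 kb in WT1, WT2 and WT3. DKOITD53e and DKOITD83 had under 1.5 kb, and the other DKOITD mice lay near or above the WT mice (log2 change -0.73, adjusted p = 0.438). The housekeeping list had 6 of 20 genes (30%, median -0.15) and the cell cycle and MYC list 5 of 18 (27.8%, median -0.67). The ERK and cytokine feedback list had 5 of 24 (20.8%, median -0.06) and stem and progenitor regulators 4 of 20 (20%, median -0.58). Leukocyte surface genes had 3 of 20 (15%, median -0.91), acetylation enzymes and readers 3 of 21 (14.3%, median -0.48) and Polycomb and demethylase genes 2 of 24 (8.33%, median -1.02). No domain in these 7 lists was called in either direction.

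Each list of genes that mark a single blood lineage had 0 or 1 gene in the broad domains, which for lists of this length is near the 2.83% of all protein-coding genes. None of the monocyte, T cell, NK cell, erythroid, megakaryocyte, mast cell or plasma cell genes was touched. The neutrophil list had 1 of 23 genes (4.35%), the signalling adaptor Tyrobp, and the dendritic cell list had 1 of 20 (5.00%), H2-DMa, which shares a domain with the bromodomain gene Brd2. The B lineage list had 1 of 20 (5.00%), Ikzf1. Presence in both whole and Kit-enriched marrow was part of the definition of a domain, and genes with peaks in 1 preparation could not enter. At Brd2 and H2-DMa all DKOITD mice lay below all WT mice, with 4.79 ± 0.576 kb in DKOITD mice and 6.79 ± 1.14 kb in WT mice (log2 change -0.48, adjusted p = 0.142).

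H3K27me3, which the choice of members did not use, touched 31 of the 531 broad domains in at least 1 mouse. It touched 3, 11, 2, 4 and 11 domains in DKOITD48, DKOITD52, DKOITD53e, DKOITD83 and DKOITD185, against 18, 12 and 16 domains in WT1, WT2 and WT3. The H3K27me3 libraries held 3343831 to 6411696 fragments in DKOITD mice and 2766339 to 3994483 in WT mice, and their peaks 3.17 to 40.5 Mb in DKOITD mice and 13.8 to 27.3 Mb in WT mice. These domains were 0.377 to 2.07% of the members in DKOITD mice and 2.26 to 3.39% in WT mice. The shares of all union regions were 0.515 to 3.73% and 2.60 to 3.73%, but those regions are shorter (median width 1026 bp, beside 4973 bp). Without the domain at the start of chromosome 9, H3K27me3 covered 0.085 to 0.418% of the members' bases in DKOITD mice and 0.425 to 0.760% in WT mice. The cover of all union regions was 0.304 to 1.85% in DKOITD mice and 1.31 to 1.96% in WT mice, and exceeded that of the members in each mouse. The counts of the genotypes lay 1 domain apart, at 11 in DKOITD52 and DKOITD185 and 12 in WT2. In the share of all union regions touched, DKOITD48, DKOITD53e and DKOITD83 (0.822, 0.515 and 0.786%) lay below every WT mouse. DKOITD52 and DKOITD185 (3.73 and 3.48%) lay within the range of the WT mice or just above it. No test was run on these counts or on this cover.

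Apart from the domain at the start of chromosome 9, 8 domains had H3K27me3 in all 3 WT mice. Rara, the retinoic acid receptor that drives granulocyte differentiation, had no H3K27me3 in any DKOITD mouse, against 2.81, 1.28 and 1.89 kb in WT1, WT2 and WT3. Its H3K27ac cover was 8.33, 8.72, 6.27, 5.51 and 9.53 kb in the 5 DKOITD mice, against 6.05, 4.03 and 2.94 kb in the WT mice, with 1 DKOITD mouse inside the WT range (log2 change 0.82, SE 0.28, limma adjusted p = 0.108). It was called higher in 2 of 17 alternative fits, with limma adjusted p-values of 0.00566 with libraries centred and 0.0378 with equal peak numbers. In the fits that did not call it, adjusted p-values were 0.104 to 0.486. Kcna3, a voltage-gated potassium channel of lymphocytes, and Chd3, a remodeller of the NuRD complex, also had H3K27me3 in no DKOITD mouse and in all WT mice, where the means were 1.67 kb at Kcna3 and 0.934 kb at Chd3. Their H3K27ac cover overlapped between the genotypes (adjusted p = 0.902 for Kcna3 and 0.773 for Chd3). With all peaks, Kcna3 was covered over 2.28, 3.10, 2.25, 1.18 and 3.31 kb in the 5 DKOITD mice, against 4.00, 2.50 and 1.43 kb in WT1, WT2 and WT3. With equal peak numbers Kcna3 was called higher in DKOITD mice (log2 change 3.64, limma adjusted p = 9.83e-05). Peaks ranked below the 8825 kept per library count as no cover in that fit, so its change is not one of length alone.

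Klf2 and Zfp36l1 had H3K27me3 in 1 DKOITD mouse, DKOITD52, and in all WT mice. At Klf2, a factor of lymphocyte quiescence and migration, it covered 0.484 kb in DKOITD52, against 1.92, 1.11 and 1.55 kb in WT1, WT2 and WT3. At Zfp36l1, a relative of tristetraprolin, it covered 4.96 kb in DKOITD52, against 2.97, 2.42 and 3.46 kb in the WT mice. H3K27ac cover of Klf2 and Zfp36l1 overlapped between the genotypes. At Trib1, a pseudokinase that directs the breakdown of C/EBP alpha, H3K27me3 was present in 2 of 5 DKOITD mice and 3 of 3 WT mice, with means of 0.550 kb in both genotypes.

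**Figure D5:**
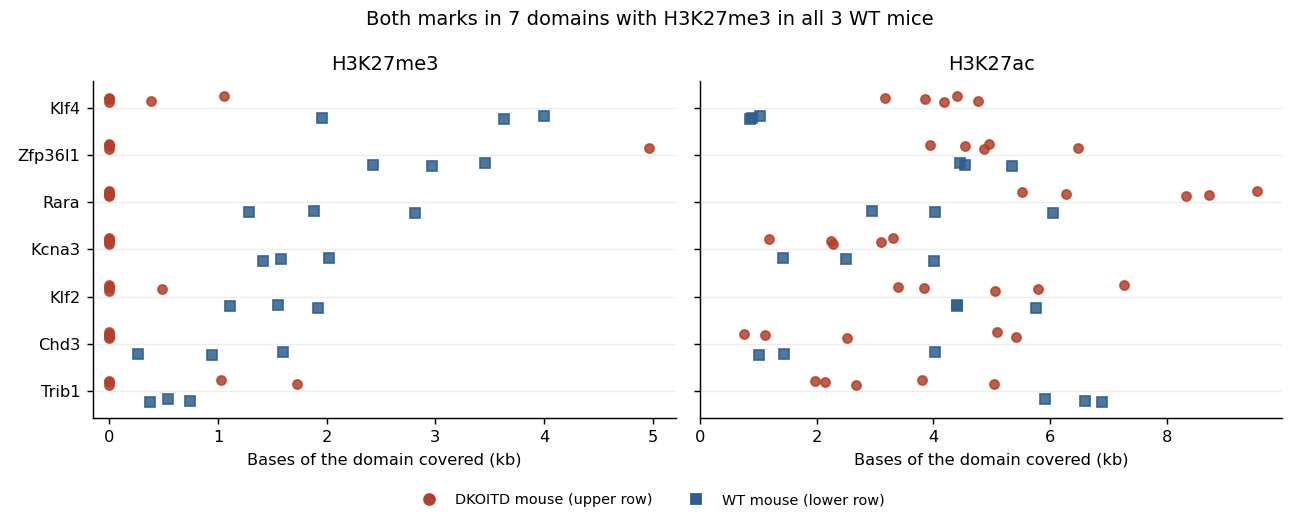
Length of the domain covered (x axis, kb) by H3K27me3 peaks (left) and H3K27ac peaks (right) in each mouse, for 7 of the 8 domains with H3K27me3 in all 3 WT mice other than the one at the start of chromosome 9 (DKOITD red circles above, WT blue squares below). No DKOITD mouse has H3K27me3 at Rara, Kcna3 or Chd3, and at Klf4 the genotypes stand apart in both marks.

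Domains at microRNA genes and outside protein-coding genes completed the set. Within 1 kb of 13 domains lay 16 of 1228 microRNA genes (1.30%), and none of these domains was called. Mir142, a microRNA expressed across blood lineages, lay in the domain of Tspoap1, covered over 6.72, 9.58, 5.26, 5.07 and 9.76 kb in the 5 DKOITD mice, against 10.1, 8.48 and 10.1 kb in WT1, WT2 and WT3 (log2 change -0.43, adjusted p = 0.333). Mir21a lay in that of Vmp1, covered over 3.98, 9.06, 2.81, 2.29 and 11.5 kb in the DKOITD mice, against 7.76, 5.77 and 5.83 kb in the WT mice (log2 change -0.38, adjusted p = 0.645). At Vmp1 the DKOITD mice spanned a wider range than the WT mice to both sides, and at Tspoap1 they overlapped the WT range from below.

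Of the 44 domains without a protein-coding gene within 1 kb, 27 had another RefSeq gene and 17 had none. One of the 17 (chromosome 8, 84196642 to 84205104) lay 3414 bp from the cluster of Mir23a, Mir27a and Mir24-2, which act in myeloid and B cell development. It was covered over 7.61, 8.40, 7.13, 7.21 and 8.17 kb in the 5 DKOITD mice, against 8.32, 7.95 and 7.71 kb in WT1, WT2 and WT3, and 84.1% of its bases were covered in all 8 mice. After the start of chromosome 9, that was the highest shared fraction of any domain, followed by Ing1 (75.3%), a subunit of a histone deacetylase complex. A domain in the immunoglobulin heavy chain locus (chromosome 12, 113423452 to 113430470), over the J segments and Ighm, was covered over 6.15, 6.42, 0.944, 4.11 and 6.20 kb in the 5 DKOITD mice, against 5.11, 3.65 and 1.49 kb in the WT mice. Both genotypes held it, with overlap (log2 change 0.37, adjusted p = 0.711). Of the 20 genes of the B lineage list, 9 had no H3K27ac in any DKOITD mouse, and 5 of these, Ms4a1 among them, had none in any WT mouse either.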

How the data were processed

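Per the labels' protocols, chromatin came from cells treated with formaldehyde (1%, 10 min), and the Drosophila spike-in was left out of the submitters' analysis, so extents carry no absolute level. Per the submitters' processing notes, Bowtie2 2.2.5 and MACS2 2.0.10 were used with the build mm10. Per the file headers, MACS 2.0.10.20131216 called broad peaks in each library from paired fragments (q under 0.05, duplicates reduced to 1), against the DKOITD48 input for all DKOITD libraries and the WT1 input for all WT libraries. The file names in the headers of WT1 and DKOITD53e H3K27ac have a form that the other libraries lack, which may mark a single run. The authors deposited a position and length for every peak, with its pileup (signal), the −log10 of its p-value and q-value, and its fold enrichment. Positions gave the extents, and −log10 q served to rank and filter peaks.

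Peaks were merged within a library, and bases under them were summed per region. Regions were tested with limma 3.58.1 in R 4.3.3 (trended empirical Bayes, pseudocount 200 bp, two-sided, Benjamini-Hochberg over 16392 regions), and the fit was tested on simulated data. No covariate was used, and the smallest group has 3 mice. Nothing in the labels says more of how mice were sampled, so p-values measure spread between these samples. The members and the 20 gene lists (338 symbols, 1 with no gene in the table) were chosen with earlier results of these data known. Genes came from a RefSeq table of GRCm38.p6, the assembly of mm10, and a domain was named by protein-coding genes within 1 kb. Domains were named in the text by rule: the 10 longest, the 10 with the largest called change each way, the 3 widest per list, those at the engineered genes, and neighbours of the threshold. Others are described after their values were seen. Alternatives were other peak sets, scales, pseudocounts, filters, definitions and left-out mice. The human cell lines were not used here, and no sequence was printed, because none was given for these regions. Depth limits weak edges of domains: a base outside a peak is not shown to lack the mark. A few genes and the results that need them are not reported here.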

Additional observations from a re-analysis of the deposited data

Results flagged for a closer look

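Among the 5 DKOITD mice, the named domains were examined for a mouse that stood far from the other four. Of 43 sets of values, 3 had such a mouse, where chance gives about 1 in 20. The domain at the start of chromosome 9 (non-coding, beside Mir101c) was covered over 36.994 kb in DKOITD185, while the others had 38.191 to 38.211 kb. At Agpat2, DKOITD52 had 1.668 kb, while the others had 1.037 to 1.125 kb, and all were below the lowest WT mouse. At Sh2b3, which encodes the adaptor LNK that restrains JAK2 signalling, DKOITD185 had 5.346 kb, the full width of the domain, while the others had 3.768 to 4.16 kb.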

How the results depend on the processing

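The lower calls, 51 with all data, numbered 32 with limma without a trend, 12 on the percent scale and 9 with peaks of −log10 q of at least 5. They numbered 2 to 85 when single mice were left out, with the low end without WT1 and the high end without DKOITD185, and 82 without DKOITD52, 24 without DKOITD48 and 25 without DKOITD83. Without DKOITD48, DKOITD53e and DKOITD83 together there were 6, and the difference in mean cover was 1.01 percentage points, against -24.8 to -13.2 with single mice left out. Lower calls among other members were 12 of 262 with regions held at 25%, 0 of 59 at 50% (5 at an unadjusted p under 0.05 in limma), 83 of 1200 at 3000 bp or more and 14 of 138 at 6000 bp or more. The higher calls, 1 with all data, numbered 20 with centred libraries, 13 with equal peak numbers, 10 without the 3 low DKOITD mice and 1 to 3 with single mice left out, the most without DKOITD53e. With other members they numbered 0 at 25% (2 unadjusted), 0 at 50% (0 unadjusted), 4 at 3000 bp or more and 0 at 6000 bp or more (3 unadjusted). A higher limit on cover removes some called domains by definition. At 25%, Klf4 leaves the set (17.9 to 21.4% covered in WT mice). So do Agpat2 (11.3 to 18.2% in DKOITD mice) and Usp46 (18.5 to 24.9% in DKOITD mice). Fewer calls at 25% and 50% are therefore partly built in. The cause of the other shifts was not tested. Of 51 lower calls, 50 were shared with the fit on centred libraries and 36 with that on equal peak numbers. No named domain that was called with all data changed direction in another fit. No paired analysis was possible because DKOITD and WT mice share no replicate number. DKOITD H3K27ac libraries were all deeper than the WT ones, and preparation went with genotype.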
